A study of Homo sapiens with 3 samples.

Results

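The genes described here make cholesterol, take it up, move it within the cell and sense its level. They were chosen by name as 34 genes of the sterol pathway, among 60506 genes listed in the data. Earlier results of these data were known when they were chosen. Shares and medians set beside all tested genes below therefore describe the 34 genes and do not test them. A gene was every transcript that carried its name on a chromosome. Of the 34, 32 had a mean of at least 1 FPKM (a read level scaled to transcript length and library size) over the libraries and are called measured, as were 13923 genes in all.

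The study asked how gene expression in HaCaT cells, an immortalized human keratinocyte line, depends on SRSF5, an RNA-binding protein that takes part in splice site choice. The groups were cells given SRSF5 siRNA No.1 or No.2 (siRNA 1 and siRNA 2 below), labelled SRSF5 knockdown, and cells given a control siRNA, labelled WT. Each siRNA was used at 10 nM with the lipid reagent RNAiMAX, and each transfection gave 1 library, so the SRSF5 group held 2 libraries with a different siRNA in each and the control 1. The labels used here give no time after transfection and do not say that any transfection was repeated in a separate culture, so a p-value measures only the spread between these libraries.

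Sterol synthesis starts from acetyl-CoA, passes through mevalonate to squalene, closes squalene into lanosterol, and converts lanosterol to cholesterol. When sterols in the endoplasmic reticulum are low, the escort protein SCAP carries the transcription factor SREBP2 to the Golgi, where a pair of proteases release its active part, which turns on most genes of the pathway. INSIG proteins hold the complex back when sterols are high, and oxysterols then activate LXR, which turns on export genes. In the epidermis, cholesterol made by keratinocytes is a main lipid of the permeability barrier.

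The targeted gene was lower in both siRNA libraries. SRSF5 had a summed level of 44.3 FPKM with siRNA 1 and 18.7 FPKM with siRNA 2, against 94.1 FPKM in the control, or 47.1% and 19.9% of the control. The libraries held 17706032 equivalents of a 100-base read with siRNA 1, 15861998 with siRNA 2 and 18321694 in the control, counted on the largest transcript of each gene. Mitochondrial transcripts held 15.1% of the base overlaps with siRNA 1 and 10.2% with siRNA 2, against 14% in the control. The keratinocyte label was checked on 7 markers, KRT5 and KRT14 among them, all of them measured, with a summed level of 5155 FPKM with siRNA 1 and 8880 FPKM with siRNA 2, against 3828 FPKM in the control. With siRNA 2 these markers moved as well, 6 of the 7 being at least 1.5-fold above the control, against 2 with siRNA 1. Their part in the sterol gene values was not tested. Of 5 leukocyte markers 0 were measured, with summed levels of 0.768, 0.865 and 0.764 FPKM for siRNA 1, siRNA 2 and control. The 6 fibroblast markers summed to 5.62 FPKM with siRNA 1, 6.43 FPKM with siRNA 2 and 2.92 FPKM in the control, and the 4 endothelial markers to 1.91, 2.46 and 3.71 FPKM in the same order.

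Of the 32 measured genes, 23 were below the control with siRNA 1 and 27 with siRNA 2, and 26 were lower with siRNA 2 than with siRNA 1. Of all 13923 tested genes, 7428 were below the control with siRNA 1 and 6398 with siRNA 2. Lower with siRNA 2 than with siRNA 1 were 6157 of them. The median log2 ratio of the 32 measured genes was -0.28 with siRNA 1 and -0.89 with siRNA 2, where all 13923 tested genes had medians of -0.02 and 0.05. Ratios are of the summed FPKM of a gene plus 1, siRNA library over control, which understates differences of low genes. With both siRNAs 5 genes were at least 1.5-fold lower (MSMO1, TMEM97, MVD, ACAT2 and FDFT1) and 0 at least 1.5-fold higher. With the mean over transcripts 3 were lower in both, FDFT1 and TMEM97 being lost, and TMEM97 was also lost with median scaling and with the highest transcript. The mean is the sum divided by the number of transcripts, so it differs only in that the added 1 FPKM weighs more. Before it was added, FDFT1 was at 55.2% of the control with siRNA 1 and 63.2% with siRNA 2. TMEM97 was at 65.2% and 36.8%. Among all tested genes 1.47% were lower and 3.19% higher by the same rule. With siRNA 1 taken alone 6 of the 32 were at least 1.5-fold lower and 0 higher, where 5.47% of all tested genes were lower and 6.18% higher. With siRNA 2 alone 21 were lower and 1 higher, where 10.1% of all tested genes were lower and 13.2% higher. At least 2-fold lower with siRNA 2 were 14 of the 32, against 2.83% of all tested genes.

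The level of a gene was the sum over its transcripts, as a base of a read counts for each transcript it overlaps. Such sums grow with the number of listed transcripts, so they are compared between libraries and not between genes. Counting errors of log2 ratios, from the read equivalents of the largest transcript, ran from 0.0195 (HMGCS1) to 0.241 (TM7SF2) with siRNA 1 and from 0.0225 (HMGCS1) to 0.382 (TM7SF2) with siRNA 2. They cover counting alone, and copies made by PCR do not count as separate molecules. Values come from bulk RNA, where fewer cells expressing a gene and less of its RNA per cell cannot be told apart.

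In limma, fitted across all tested genes with the siRNA libraries against the control, 0 of the 32 sterol genes passed a Benjamini-Hochberg adjusted p of 0.05 (smallest adjusted p = 1), as 0% of all tested genes did. At an unadjusted p below 0.05 there were 3 of the 32 and 416 of 13923. The fit takes its spread from the difference between the siRNAs, with 1 residual degree of freedom per gene. It then draws that spread toward a trend over all tested genes, so a p-value does not rest on the gene's own difference alone. The single control is treated as if it varied as much. No sterol gene therefore differed from the control by a test, and higher and lower below describe these libraries.

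**Figure D1:**
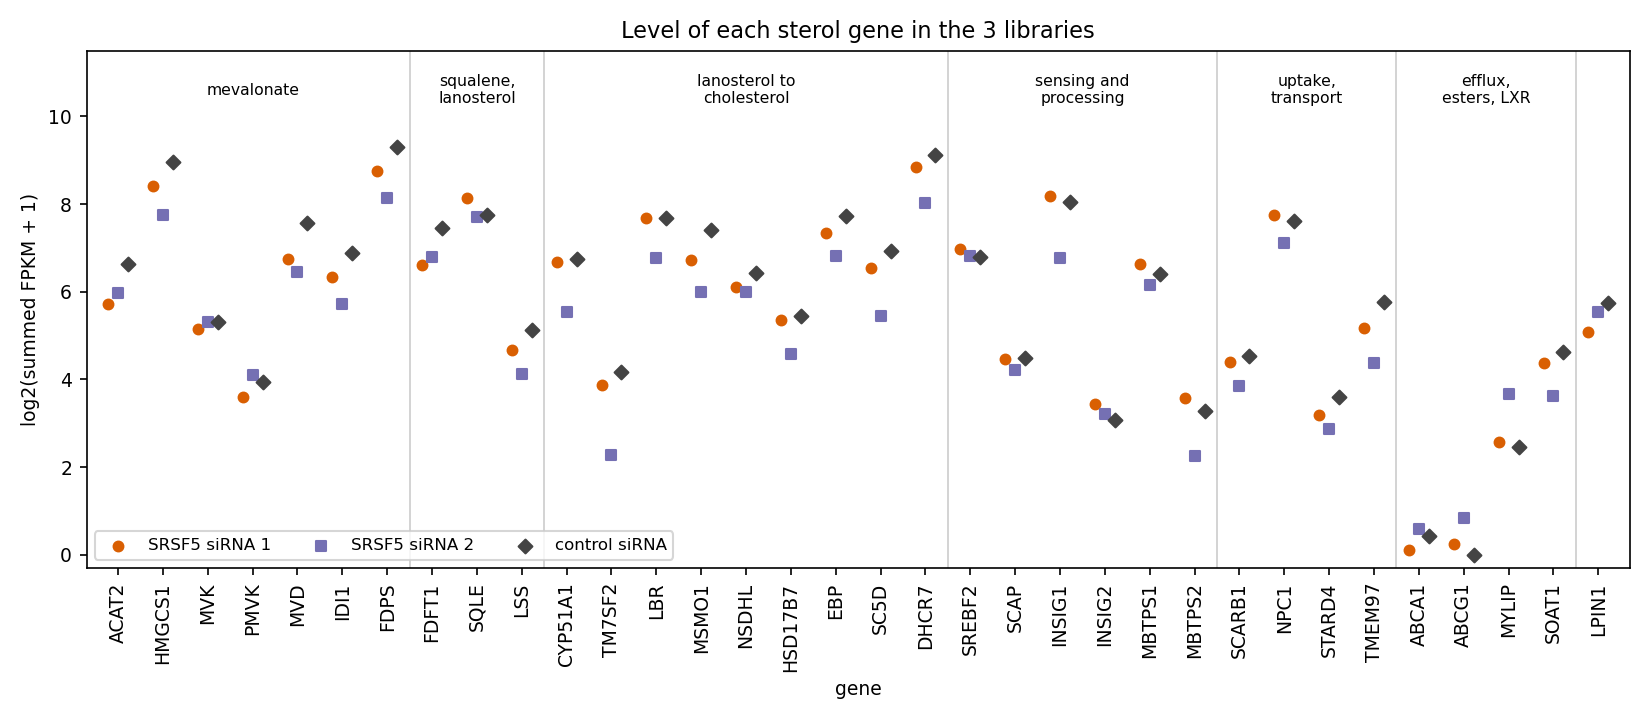
Level of each of the 34 sterol genes in the SRSF5 siRNA 1 (circles), SRSF5 siRNA 2 (squares) and control siRNA (diamonds) libraries, as log2 of the summed FPKM plus 1, ordered by pathway step. Each point is 1 library. The siRNA 1 point lies below the control point in 23 of 32 measured genes, against 7428 of all 13923 tested genes. The siRNA 2 point does so in 27, against 6398 of all tested genes.

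The first steps, from acetyl-CoA to farnesyl diphosphate, held 7 genes, of which 5 were at least 1.5-fold lower with siRNA 2 and 2 with siRNA 1. ACAT2, the thiolase that joins acetyl groups, had 51.9 FPKM with siRNA 1 and 61.6 FPKM with siRNA 2, against 97.7 FPKM in the control. HMGCS1, which makes HMG-CoA, had 339 FPKM with siRNA 1 and 213.8 FPKM with siRNA 2, against 497 FPKM in the control. Both genes were below the control in each siRNA library, ACAT2 further with siRNA 1 (log2 ratios -0.90 and -0.66) and HMGCS1 further with siRNA 2 (-0.55 and -1.21).

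The kinases that phosphorylate mevalonate stayed closer to the control. MVK had 34.6 FPKM with siRNA 1 and 38.6 FPKM with siRNA 2, against 38.4 FPKM in the control. PMVK had 11.16 FPKM with siRNA 1 and 16.0 FPKM with siRNA 2, against 14.5 FPKM in the control, so it was lower with siRNA 1 (log2 -0.35, counting error 0.09) and slightly higher with siRNA 2 (0.14, counting error 0.08). The MVK ratios, -0.15 and 0.01, were no more than near the size of their counting errors of 0.13 and 0.14. Those errors rest on MVK-209, a transcript typed as a retained intron that was at 0.20 with siRNA 1, so they describe the gene poorly.

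The 3 enzymes that follow the kinases were lower in both libraries. MVD, the decarboxylase that makes isopentenyl diphosphate, had 106 FPKM with siRNA 1 and 86.6 FPKM with siRNA 2, against 190.0 FPKM in the control, a mean log2 ratio of -0.98 ± 0.21 (SD, n = 2 siRNAs). The isomerase IDI1 had 79.4 FPKM with siRNA 1 and 51.9 FPKM with siRNA 2, against 117 FPKM in the control. FDPS, the farnesyl diphosphate synthase, had 432 FPKM with siRNA 1 and 282 FPKM with siRNA 2, against 631 FPKM in the control. IDI1 (-0.55 and -1.16) and FDPS (-0.54 and -1.16) had nearly the same pair of ratios as HMGCS1. With siRNA 1 these 3 genes just missed the 1.5-fold limit, 0.585 on the log2 scale, and TMEM97 (-0.60) just passed it.

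Between farnesyl diphosphate and lanosterol stand FDFT1, SQLE and LSS. FDFT1, the squalene synthase, had 96.6 FPKM with siRNA 1 and 111 FPKM with siRNA 2, against 175 FPKM in the control (log2 ratios -0.85 and -0.66). SQLE, the squalene epoxidase, had 281 FPKM with siRNA 1 and 206.5 FPKM with siRNA 2, against 216 FPKM in the control (0.38 and -0.06, counting errors 0.02 and 0.03). LSS, which closes the ring to lanosterol, had 24.6 FPKM with siRNA 1 and 16.4 FPKM with siRNA 2, against 34.2 FPKM in the control (-0.46 and -1.01). SQLE was thus the gene of synthesis farthest above the control with siRNA 1, while its neighbours on both sides were below.

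The conversion of lanosterol to cholesterol gave the widest gap between the siRNAs. Of its 9 genes 8 were at least 1.5-fold lower with siRNA 2 and 1, MSMO1, with siRNA 1, with medians of -0.29 and -1.09. CYP51A1, the lanosterol demethylase, had 101 FPKM with siRNA 1 and 45.4 FPKM with siRNA 2, against 106 FPKM in the control (-0.07 and -1.20). It shares 90.1% of the bases of its largest transcript with genes listed on the same strand (AC000120.2 and AC000120.3), whose reads cannot be told from its own.

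A pair of genes encode reductases for the next step, TM7SF2 and LBR, the second of which also binds lamin at the nuclear envelope. TM7SF2 had 13.7 FPKM with siRNA 1 and 3.83 FPKM with siRNA 2, against 16.9 FPKM in the control (-0.29 and -1.89). LBR had 206.2 FPKM with siRNA 1 and 108 FPKM with siRNA 2, against 205.9 FPKM in the control (0.00 and -0.92). By summed FPKM, TM7SF2 had the lowest ratio of the 32 genes with siRNA 2. With the mean over transcripts its ratio was -0.53, within 1.5-fold, and with the highest transcript -0.94, and the lowest was then that of MSMO1 (-1.37 and -1.41). Before 1 FPKM was added, sum and mean alike gave TM7SF2 22.6% of the control with siRNA 2. That 1 FPKM exceeds its means of 0.147 FPKM with siRNA 2 and 0.651 FPKM in the control. With 0.1 FPKM added to the sum the ratio was -2.12. TM7SF2 also had the fewest reads, its largest transcript holding 63.6 read equivalents with siRNA 1 and 17.3 with siRNA 2, against 81.5 in the control.

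MSMO1, NSDHL and HSD17B7 act together to remove methyl groups from the ring. MSMO1, the methyl oxidase, had 106 FPKM with siRNA 1 and 62.7 FPKM with siRNA 2, against 170.2 FPKM in the control, a mean log2 ratio of -1.06 ± 0.53 (SD, n = 2). The dehydrogenase NSDHL had 67.6 FPKM with siRNA 1 and 62.7 FPKM with siRNA 2, against 85.1 FPKM in the control. The reductase HSD17B7 had 39.8 FPKM with siRNA 1 and 22.8 FPKM with siRNA 2, against 42.4 FPKM in the control. MSMO1 was therefore far below the control with both siRNAs, NSDHL moderately (-0.33 and -0.44) and HSD17B7 mainly with siRNA 2 (-0.09 and -0.87). The HSD17B7P2 copy, listed at 6.24 FPKM with siRNA 1, 3.37 FPKM with siRNA 2 and 5.93 FPKM in the control, may share reads with HSD17B7, so its values are uncertain.

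The last enzymes repeated the pattern. The isomerase EBP had 162 FPKM with siRNA 1 and 112 FPKM with siRNA 2, against 211 FPKM in the control (-0.38 and -0.91), with 57.1% of its largest transcript shared with AF196969.1 on the same strand. The desaturase SC5D had 92.1 FPKM with siRNA 1 and 42.7 FPKM with siRNA 2, against 120.5 FPKM in the control (-0.38 and -1.47). DHCR7, the reductase that yields cholesterol, had 458 FPKM with siRNA 1 and 259 FPKM with siRNA 2, against 554 FPKM in the control (-0.27 and -1.09). In all 9 genes of this branch the siRNA 2 library was the lowest of the 3, which was not counted over all tested genes.

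**Figure D2:**
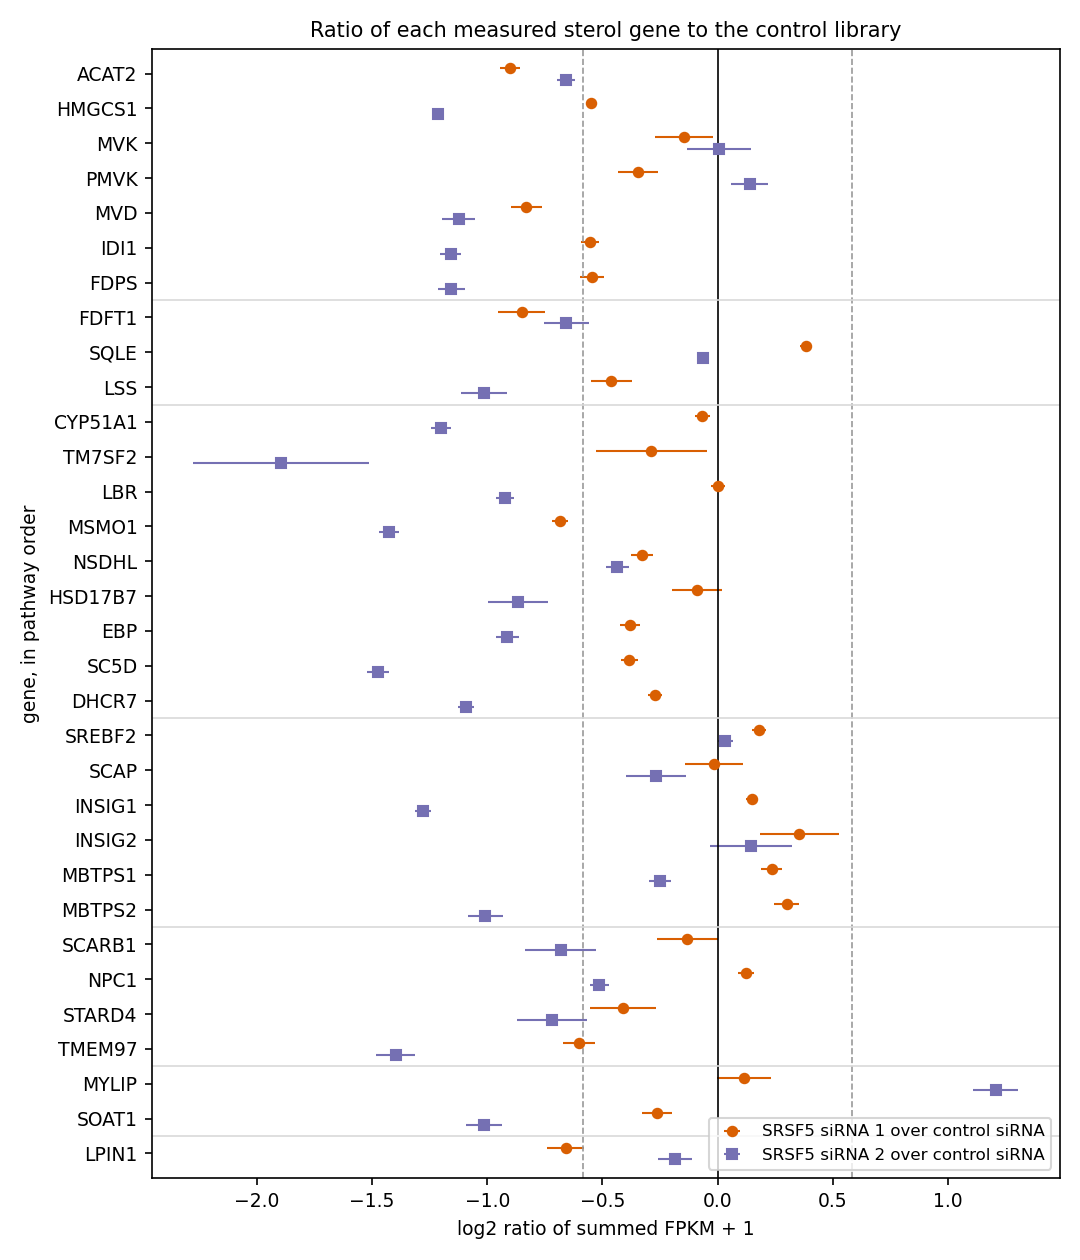
Log2 ratio of each of the 32 measured sterol genes for SRSF5 siRNA 1 (circles) and SRSF5 siRNA 2 (squares) over the control siRNA library; bars are the counting error and dashed lines mark 1.5-fold. MYLIP alone lies right of the upper line, at 1.21 with siRNA 2, and 21 genes lie left of the lower line with siRNA 2.

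The sensing machinery did not move as a block. SREBF2, which encodes SREBP2, had 124.5 FPKM with siRNA 1 and 112 FPKM with siRNA 2, against 109.8 FPKM in the control (0.18 and 0.03). Its escort SCAP had 21.2 FPKM with siRNA 1 and 17.7 FPKM with siRNA 2, against 21.5 FPKM in the control (-0.02 and -0.27, counting errors 0.125 and 0.130). MBTPS1, the first of the releasing proteases, had 98.2 FPKM with siRNA 1 and 69.9 FPKM with siRNA 2, against 83.3 FPKM in the control (0.24 and -0.25). These 3 genes stayed within 1.5-fold of the control in both siRNA libraries.

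MBTPS2, the protease that makes the second cut, had 10.9 FPKM with siRNA 1 and 3.79 FPKM with siRNA 2, against 8.64 FPKM in the control (0.30 and -1.01). INSIG1, a retention protein whose gene is itself an SREBP target, had 291 FPKM with siRNA 1 and 108 FPKM with siRNA 2, against 263 FPKM in the control (0.15 and -1.28). INSIG2 had 9.78 FPKM with siRNA 1 and 8.32 FPKM with siRNA 2, against 7.43 FPKM in the control (0.36 and 0.15). INSIG1 and MBTPS2 were the members of this group at least 1.5-fold lower with siRNA 2, and in both the siRNA 1 library was the highest of the 3.

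The 4 genes of uptake and transport were below the control with siRNA 2, with medians of -0.27 and -0.70. TMEM97, a membrane protein that binds the lysosomal cholesterol exporter NPC1, had 35.0 FPKM with siRNA 1 and 19.8 FPKM with siRNA 2, against 53.7 FPKM in the control (-0.60 and -1.40). NPC1 had 213.5 FPKM with siRNA 1 and 137 FPKM with siRNA 2, against 196 FPKM in the control (0.12 and -0.51). The lipoprotein receptor SCARB1 had 20.1 FPKM with siRNA 1 and 13.4 FPKM with siRNA 2, against 22.1 FPKM in the control (-0.13 and -0.68). STARD4, a soluble sterol carrier, was below the control in both libraries, having 8.08 FPKM with siRNA 1 and 6.34 FPKM with siRNA 2, against 11.1 FPKM in the control (-0.41 and -0.72). With the mean over transcripts or the highest transcript, SCARB1 (-0.44 and -0.49) and STARD4 (-0.33 and -0.48) were within 1.5-fold with siRNA 2. On these smaller levels the added 1 FPKM weighs more than on the sum. Before it was added, the siRNA 2 sums were 60.7% (SCARB1) and 57.2% (STARD4) of the control.

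MYLIP went the other way. It encodes a ubiquitin ligase that marks lipoprotein receptors for breakdown and is a target of LXR. MYLIP had 4.94 FPKM with siRNA 1 and 11.7 FPKM with siRNA 2, against 4.48 FPKM in the control (0.11 and 1.21, counting errors 0.12 and 0.10). The largest MYLIP transcript held 309 read equivalents with siRNA 1 and 714 with siRNA 2, against 296 in the control. Among the 32 measured genes it was the single one at least 1.5-fold above the control in either siRNA library.

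The exporters, also targets of LXR, were too low to be measured. ABCA1 was listed at 0.0724 FPKM with siRNA 1 and 0.501 FPKM with siRNA 2, against 0.336 FPKM in the control. ABCG1 was listed at 0.189 FPKM with siRNA 1 and 0.783 FPKM with siRNA 2, and at 0 in the control, where its largest transcript held 0 read equivalents, against 2.00 and 11.3 in the siRNA 1 and siRNA 2 libraries. The largest ABCA1 transcript held 12.5 read equivalents with siRNA 1 and 95.5 with siRNA 2, against 117 in the control. At such levels no fold is given for either gene.

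SOAT1, which stores cholesterol as esters, had 19.6 FPKM with siRNA 1 and 11.24 FPKM with siRNA 2, against 23.7 FPKM in the control (-0.26 and -1.01). LPIN1, a phosphatidate phosphatase known as an SREBP target, had 32.7 FPKM with siRNA 1 and 45.8 FPKM with siRNA 2, against 52.2 FPKM in the control (-0.66 and -0.18). LPIN1 was the gene that passed 1.5-fold with siRNA 1 but not with siRNA 2. With the mean over transcripts, on which the added 1 FPKM weighs more, it did not pass with siRNA 1 either (-0.46). Before it was added, LPIN1 was at 62.6% of the control with siRNA 1.

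**Figure D3:**
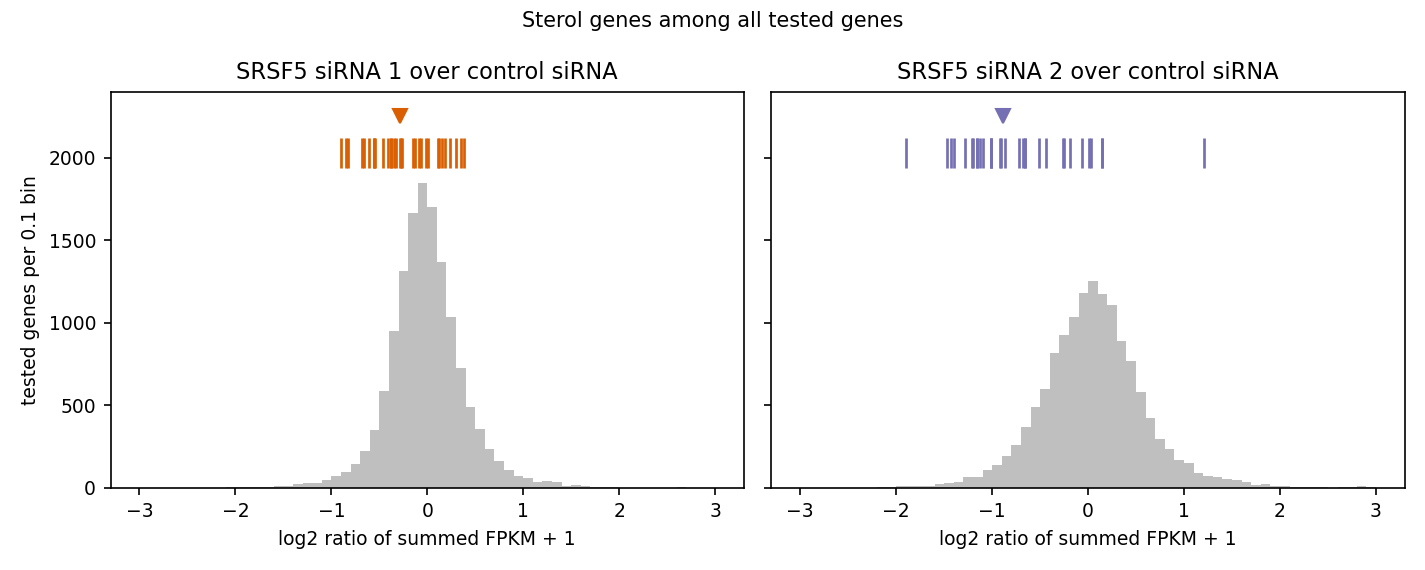
Distribution of the log2 ratios of all 13923 tested genes (grey bars, bins of 0.1, values beyond 3 placed in the end bins) for SRSF5 siRNA 1 (left) and SRSF5 siRNA 2 (right) over the control siRNA library. Coloured ticks are the 32 measured sterol genes and the triangle their median, at -0.28 with siRNA 1 and -0.89 with siRNA 2.

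The siRNA libraries were also set directly against each other, which leaves out the control. The median log2 ratio of siRNA 2 over siRNA 1 was -0.55 over the 32 genes and 0.07 over all tested genes. Below 0 were 26 of the 32, against 6157 of all 13923 tested genes. At least 1.5-fold lower with siRNA 2 than with siRNA 1 were 15 genes and higher 1, where 10.5% of all tested genes were lower and 13.7% higher. At least 2-fold lower were 5 genes, TM7SF2 (-1.61), INSIG1 (-1.43), MBTPS2 (-1.31), CYP51A1 (-1.13) and SC5D (-1.09), against 2.88% of all tested genes. MYLIP was higher with siRNA 2 (1.09).

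The siRNA 2 library stood above the siRNA 1 library in 7766 of all 13923 tested genes and in 6 of the 32 sterol genes. Besides MYLIP these were PMVK (0.49), LPIN1 (0.48), ACAT2 (0.24), FDFT1 (0.19) and MVK (0.15). ACAT2 and FDFT1 were thus low in both libraries with no further lowering in the siRNA 2 library, whereas HMGCS1, MSMO1 and TMEM97 were lower again there. The smallest gap was in NSDHL (-0.11, counting error 0.05). No replicate check exists for these differences, with 1 library per siRNA.

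**Figure D4:**
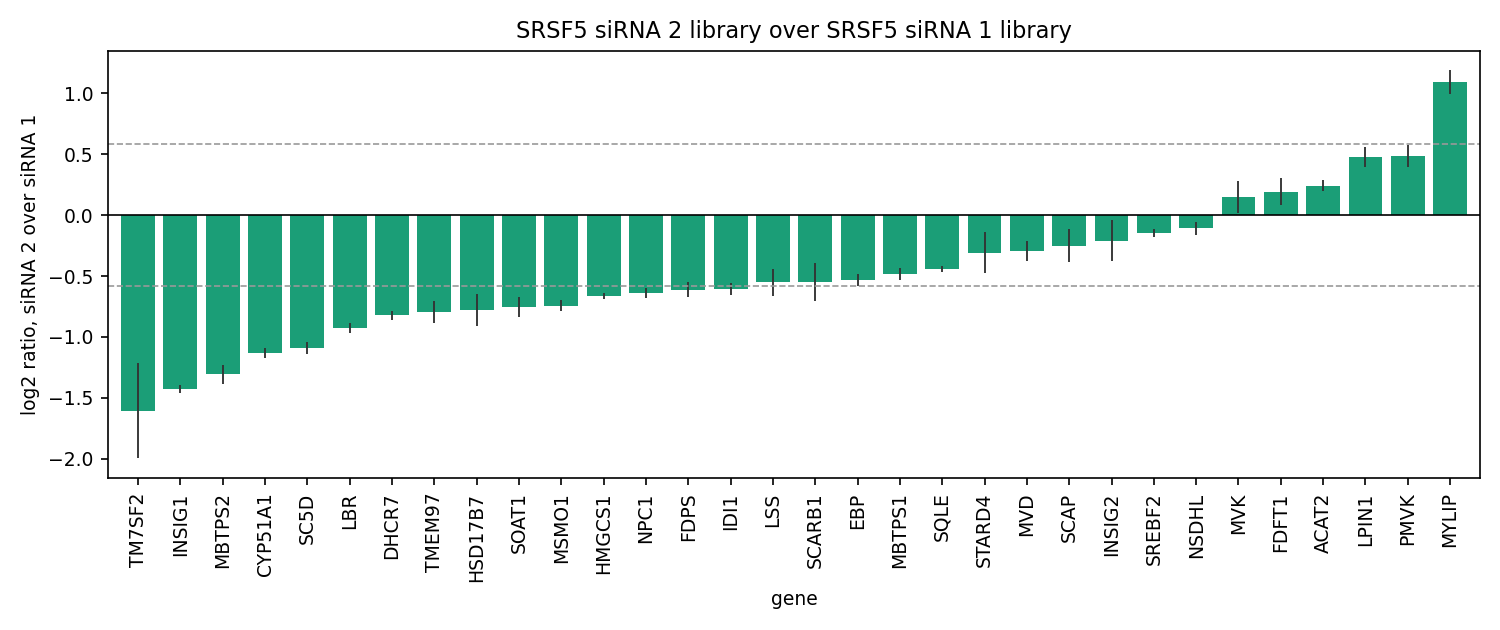
Log2 ratio of the SRSF5 siRNA 2 library over the SRSF5 siRNA 1 library for the 32 measured sterol genes, sorted; error bars are the counting error and dashed lines mark 1.5-fold. Bars run from -1.61 (TM7SF2) to 1.09 (MYLIP).

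In many of the genes, though not in all, the transcripts lay on 1 side of the control. All 17 MVD transcripts with a mean of at least 1 FPKM were below the control with both siRNAs, at log2 ratios of -0.90 to -0.54 with siRNA 1 and -1.20 to -0.90 with siRNA 2. So were all 21 of FDPS, all 25 of FDFT1, all 12 of DHCR7, all 7 of HMGCS1 and all 5 each of MSMO1, IDI1 and TMEM97. All 6 INSIG1 transcripts were above the control with siRNA 1 (0.11 to 0.18) and below it with siRNA 2 (-1.33 to -1.17). Some transcripts went against their gene. With siRNA 1, LSS-210 was at 0.24 (gene -0.46) and MVK-209 at 0.20 (gene -0.15). With siRNA 2, NPC1-206 was at 0.21 and NPC1-214 at 0.02 (gene -0.51). Transcripts of a gene share reads, so these counts are not separate evidence.

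Because SRSF5 acts in splicing, the share of a gene held by transcripts typed as retained introns was compared. Among 22 measured sterol genes with such transcripts 0 shifted by 5 percentage points or more, and the widest shifts were in LSS with siRNA 1 (13.1%, against 9.56% in the control) and in HSD17B7 with siRNA 2 (30.7%, against 34.9% in the control). In MVD the share was 39.1% with siRNA 1 and 39.8% with siRNA 2, against 40.7% in the control. Transcripts typed for nonsense-mediated decay, in 13 genes, likewise shifted by less than 5 points in each. Shared reads make such shares change less than isoforms do, so small isoform changes could be missed.

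The windows around the start sites, from RefSeq (GRCh38.p14), were read for motifs. Windows ran from 250 bases before to 50 after a start site and were held for 29 of the 34 genes, and for 3 of the 5 lower in both libraries (MSMO1, TMEM97 and MVD, not ACAT2 or FDFT1). The 29 genes had 37 windows, as some genes had several start sites. A gene counted once if any of its windows matched, and all other genes were counted the same way. The motif TCACNCCAC, a form of the sterol regulatory element that SREBP binds, was searched on both strands together with CCAAT, the box bound by NF-Y, which acts beside SREBP. TCACNCCAC matched in 1 of the 29 genes (3.45%), SREBF2, against 1.39% of all 27305 genes with a window. CCAAT matched in 19 of 29 (65.5%), in 13 of 16 genes of synthesis and in 15 of 18 genes at least 1.5-fold lower with siRNA 2, against 39.7% of all genes. Those 27305 genes include ones that were not tested here, and no share was taken over tested genes alone. The sets of 16 and 18 genes overlap, so their counts are not separate results. Whether CCAAT goes with the lower levels was not tested. Such a match is a run of letters and was not shown to be bound.

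Shown are the windows of MSMO1 (chr4:165327419-165327718, plus strand), TMEM97 (chr17:28318950-28319249, plus strand), MVD (chr16:88663042-88663341, minus strand) and SREBF2 (chr22:41832855-41833154, plus strand), 5′ to 3′. Capitals mark CCAAT or its reverse complement, ATTGG, and in SREBF2 also TCACCCCAC. MSMO1 holds 4 CCAAT boxes, TMEM97 3, MVD 3 and SREBF2 1.
MSMO1: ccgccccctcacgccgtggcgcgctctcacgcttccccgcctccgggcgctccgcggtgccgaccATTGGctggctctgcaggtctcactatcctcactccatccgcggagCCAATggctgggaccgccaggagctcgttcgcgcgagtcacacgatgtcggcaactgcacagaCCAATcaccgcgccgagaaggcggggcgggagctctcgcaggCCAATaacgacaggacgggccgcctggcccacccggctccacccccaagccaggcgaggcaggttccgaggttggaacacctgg
TMEM97: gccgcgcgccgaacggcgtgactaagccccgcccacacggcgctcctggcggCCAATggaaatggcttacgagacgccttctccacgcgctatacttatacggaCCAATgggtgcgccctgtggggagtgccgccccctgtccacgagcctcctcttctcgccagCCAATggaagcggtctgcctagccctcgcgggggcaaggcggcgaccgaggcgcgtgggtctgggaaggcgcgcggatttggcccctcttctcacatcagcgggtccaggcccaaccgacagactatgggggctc
MVD: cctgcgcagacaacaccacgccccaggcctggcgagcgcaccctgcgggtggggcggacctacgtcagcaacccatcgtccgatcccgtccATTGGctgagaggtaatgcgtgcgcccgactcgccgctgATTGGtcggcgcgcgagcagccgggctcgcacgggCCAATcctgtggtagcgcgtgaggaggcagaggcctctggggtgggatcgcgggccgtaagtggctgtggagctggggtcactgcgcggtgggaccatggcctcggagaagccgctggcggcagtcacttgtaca
SREBF2: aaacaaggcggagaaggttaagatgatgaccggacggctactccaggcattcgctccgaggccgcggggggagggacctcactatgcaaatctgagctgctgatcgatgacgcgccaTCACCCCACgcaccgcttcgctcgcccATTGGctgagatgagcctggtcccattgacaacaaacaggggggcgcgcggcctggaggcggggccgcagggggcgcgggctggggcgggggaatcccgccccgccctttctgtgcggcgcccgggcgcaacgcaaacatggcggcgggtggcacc

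The TCACCCCAC of SREBF2 lies at -133 to -125 from the start site and its CCAAT box, on the other strand, at -106 to -102, so they share no base. CCAAT matches were also found in genes that were not lower, such as MVK and MYLIP, and 4 of 10 measured genes not lower with siRNA 2 held one. Other forms of the element were not searched.

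Neighbouring lipid genes were described from lists of their own. Fatty acid synthesis, which shares SREBP control, had medians of -0.31 with siRNA 1 and -0.56 with siRNA 2 over 16 measured genes, and 2 of them passed the 1.5-fold rule downward in both libraries and 0 upward. They were ACSS2, an acetyl-CoA synthetase, with 48.3 FPKM with siRNA 1 and 42.9 FPKM with siRNA 2, against 130.2 FPKM in the control, and the lipase PNPLA3, with 4.33 FPKM with siRNA 1 and 3.19 FPKM with siRNA 2, against 8.28 FPKM in the control. With the mean over transcripts, or with the highest transcript, 1 gene of this list passed in place of 2. The added 1 FPKM weighs more on both of these levels than on the sum. The elongase ELOVL5 had the widest gap between the siRNAs of this list (-0.40 and -1.98).

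The isoprenoid branch, which draws on farnesyl diphosphate for prenyl groups, dolichol and ubiquinone, had medians of -0.05 and -0.20 over 11 measured genes, with 0 lower and 1 higher in both. That gene was GGPS1, the geranylgeranyl diphosphate synthase, with 12.2 FPKM with siRNA 1 and 10.9 FPKM with siRNA 2, against 6.74 FPKM in the control. GGPS1 missed the rule with the mean over transcripts, the highest transcript, coding transcripts alone and both other scalings. With each of these scalings 1 gene of the list was lower in both and 0 higher. On the mean over transcripts the added 1 FPKM weighs more than on the sum. ICMT, a methyltransferase of prenylated proteins, was lower with siRNA 1 than with siRNA 2 (-1.60 and -0.55).

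**Figure D5:**
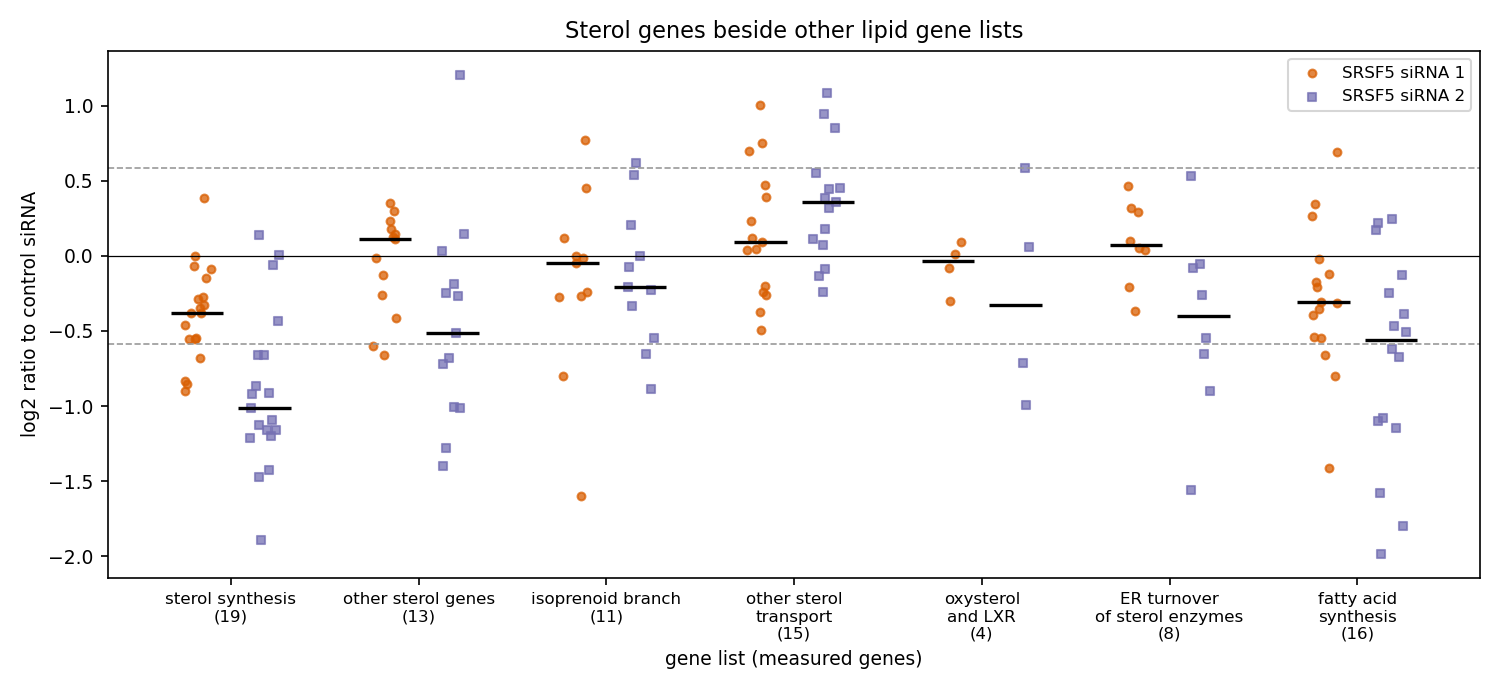
Log2 ratios to the control siRNA library of measured genes in the sterol groups and in 5 further lists, for SRSF5 siRNA 1 (circles) and SRSF5 siRNA 2 (squares); black bars are medians, dashed lines mark 1.5-fold and the number of genes is given under each list. The 19 genes of sterol synthesis had medians of -0.38 with siRNA 1 and -1.01 with siRNA 2.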

How the data were processed

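RNA of HaCaT cells was sequenced in 3 libraries, 1 per transfection. The authors deposited FPKM for each of 247012 transcripts, a unit read from the files' names and values. For aligner and counter, nothing was given in the sources used here. Of the builds GRCm38, mm10 and GRCh38.p12, the submitters' processing notes state no role. FPKM times length was a whole multiple of 1 step (tolerance 0.05) in each library, which gave base counts, and 100 bases were called a read equivalent. Transcripts off the chromosomes or listed as duplicate copies (20343) were left out. FPKM was summed per gene in Python 3.11.15, genes with a mean of at least 1 FPKM were tested, and ratios are of FPKM + 1. Strand use in counting is not stated. A single-exon transcript lying within an exon of another transcript held more bases than that transcript in 49 of 193 opposite-strand pairs and in 0 of 914 same-strand pairs. On the opposite strand, other genes overlap 69.6% of the largest ACAT2 transcript, 46.7% of HMGCS1 and 39.7% of FDPS. Limma 3.58.1 (R 4.3.3) was fitted with a trend to log2(FPKM + 1) and tested on simulated data. The values are not counts per gene, so no count model was run. The 34 sterol genes and all lists were chosen with earlier results of these data known. All 34 are named, and of other lists the genes past 1.5-fold the same way with both siRNAs and the gene with the widest gap between the siRNAs. The rule for printed promoters (lower in both, with TCACNCCAC) gave 0, so those shown were chosen after their values were seen. Other pseudocounts, filters, scalings, gene levels, thresholds and limma settings were tried.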

Additional observations from a re-analysis of the deposited data

How the results depend on the processing

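The count of sterol genes past 1.5-fold downward with both siRNAs, 5 in the report, was 3 to 5 over 8 alternatives of pseudocount, gene level, scaling and filter, 1 of which, the sum over coding transcripts, was added after the data were seen. With the mean over transcripts it was 3 (without FDFT1 and TMEM97), with median scaling 4 (without TMEM97), and with the highest transcript 5, IDI1 in place of TMEM97. The mean differs from the sum only in that the added 1 FPKM weighs more. With a threshold of 2-fold it was 0. With only 1 siRNA library left it was 6 to 21, the second value without siRNA 1, and the count of higher genes 0 to 1. Medians ran from -0.29 to -0.22 with siRNA 1, from -0.95 to -0.65 with siRNA 2 and from -0.63 to -0.42 for siRNA 2 over siRNA 1. In limma 0 of the 32 passed under each of 10 alternatives, a robust fit and one without trend among them. Leaving out a siRNA library left no residual degree of freedom, so limma was not run there. Of 512 ratios of single genes under the alternatives 507 stayed within the SD between the siRNAs and 0 ratios at least 1.5-fold away changed sign. That SD was each gene's own, so the check was loosest where the siRNAs differed most. TM7SF2 with siRNA 2, at -0.94 with the highest transcript, still counted as within its SD of 1.14. Of TM7SF2 with siRNA 2, the mean over transcripts gave -0.53 in place of -1.89, as the added 1 FPKM weighs more on it. A pseudocount of 0.1 FPKM gave -2.12. No paired analysis was possible because there is 1 control library, so the groups share fewer than 2 replicate numbers. Depth limits TM7SF2, ABCA1 and ABCG1 most.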

Other observations

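Genes that turn over sterol enzymes in the endoplasmic reticulum had medians of 0.07 with siRNA 1 and -0.40 with siRNA 2 over 8 measured genes, with 0 at least 1.5-fold away in both. ERLIN2, which helps to break down proteins of the endoplasmic reticulum, had 60.4 FPKM with siRNA 1 and 16.0 FPKM with siRNA 2, against 49.1 FPKM in the control (0.29 and -1.56).

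Further genes of sterol transport had medians of 0.09 with siRNA 1 and 0.36 with siRNA 2 over 15 measured genes, with 1 at least 1.5-fold higher in both. That gene, GRAMD1A, a carrier of cholesterol from the plasma membrane, had 14.5 FPKM with siRNA 1 and 19.3 FPKM with siRNA 2, against 8.56 FPKM in the control (0.70 and 1.08). It missed 1.5-fold in both with the mean over transcripts, the highest transcript and coding transcripts alone. On these smaller levels the added 1 FPKM weighs more than on the sum. OSBPL1A had the widest gap between the siRNAs of this list (-0.24 and 0.85). Genes of oxysterols and LXR had medians of -0.03 and -0.33 over 4 measured genes. Among them NR1H3, an LXR gene, had 6.03 FPKM with siRNA 1 and 2.31 FPKM with siRNA 2, against 5.59 FPKM in the control, on 15.7, 5.90 and 14.1 read equivalents.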
